A study of Rattus norvegicus with 4 samples.

Results

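The small leucine-rich proteoglycans are secreted matrix proteins that bind collagen fibrils, and 10 genes of the family were described here: Dcn, Bgn, Fmod, Lum, Prelp, Omd, Ogn, Epyc, Aspn and Chad. They were chosen by name, matching the gene symbol without regard to case, and all 10 were among the 24005 genes of the deposited count table. The values come from messenger RNA sequencing of cartilage from male rats of the outbred Sprague Dawley strain, labelled as 8 to 12 weeks old and weighing 140 to 230 g. The osteoarthritis group held 2 libraries that carry the disease label osteoarthritis and the treatment label XGS, short for Xiaogu San, a herbal preparation, and the control group held 2 libraries labelled healthy and control. By the title, the osteoarthritis was induced with monosodium iodoacetate, a glycolysis inhibitor injected into joints to damage cartilage. The labels name no dose or time of either agent and no osteoarthritis library without XGS, so the disease and the preparation cannot be told apart. No label says whether the libraries of a group came from separate animals, so the p-values measure only how these samples vary, and that variation may be technical. The design text speaks of normal mice for the controls, whereas the labels of all samples give rat.

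Each protein of the family has a core of leucine-rich repeats that folds into a curved solenoid, and many members carry chondroitin, dermatan or keratan sulfate chains. By binding to collagen they set the diameter and spacing of fibrils, and several also bind growth factors of the TGF-beta family. In cartilage, decorin, biglycan, fibromodulin, lumican, PRELP and chondroadherin are established matrix components, and fragments of several are found in osteoarthritic joints.

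Library totals ran from 24492412 to 28270779 counts. Of 15 chondrocyte markers listed, 13 were found among the genes, and these had counts in all libraries. So did the listed markers of marrow blood cells and of osteoblasts and osteocytes, so counts alone do not identify the tissue. The summed level of the 13 was 4154 and 10366 CPM in the osteoarthritis libraries and 20661 and 33431 CPM in the control libraries. Col2a1 alone had 3431 and 385 CPM in osteoarthritis and 13919 and 26813 CPM in control. CPM here is a count relative to the library's total, after scaling that total by the TMM method. Markers of other tissues also differed between libraries: those of marrow blood cells summed to 518 and 1285 CPM in osteoarthritis and 38756 and 34679.6 CPM in control, and those of osteoblasts and osteocytes to 79.8 and 389.6 CPM in osteoarthritis and 1397 and 5712 CPM in control. The osteoarthritis libraries stood apart from each other, with adipocyte markers at 8053 CPM in replicate 1 and 66.7 CPM in replicate 2, against 1649 and 667 CPM in control. Tendon and ligament markers went the other way, at 458 CPM in osteoarthritis replicate 1 and 5337 CPM in replicate 2, against 636 and 728 CPM in control. In bulk tissue, fewer cells of a type and less RNA per cell cannot be told apart.

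**Figure D1:**
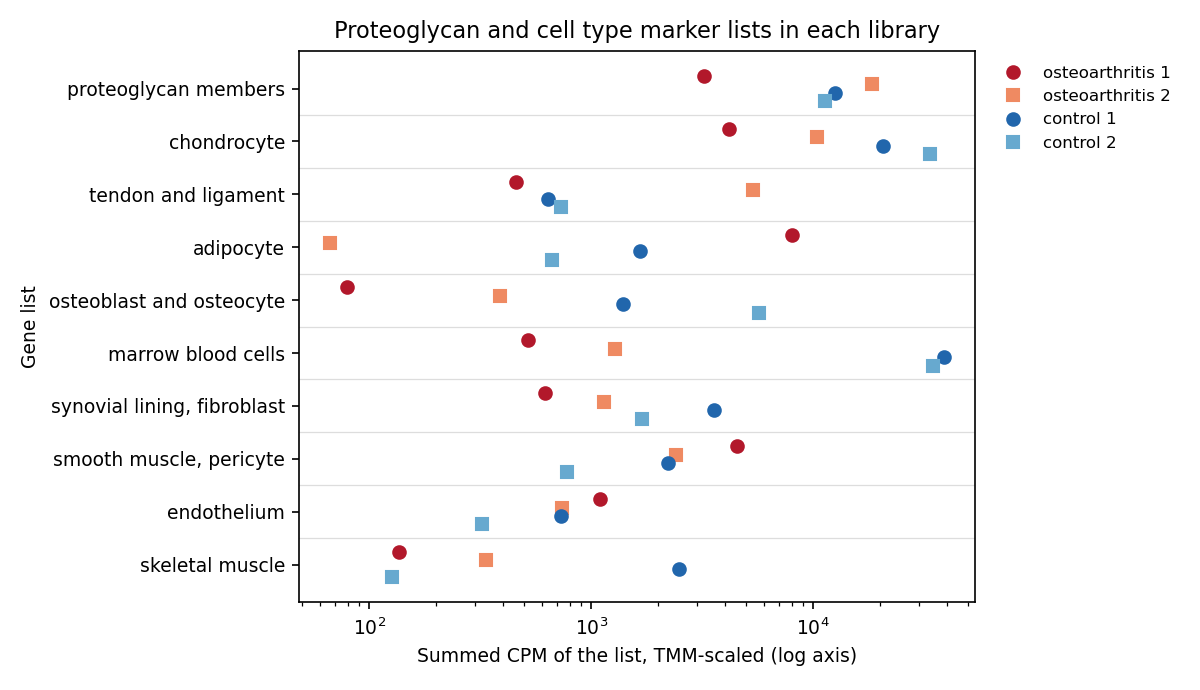
Summed TMM-scaled CPM (log axis) of the 10 proteoglycan genes and of 9 cell type marker lists, with 1 point per library. The proteoglycan sum was lowest in osteoarthritis replicate 1 (3235 CPM) and highest in osteoarthritis replicate 2 (18335 CPM), with the controls between them, and the adipocyte and tendon lists separated the same 2 libraries in opposite directions.

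Chad, Aspn and Ogn were the members whose osteoarthritis and control libraries did not overlap. Chad was far lower in osteoarthritis, while Aspn and Ogn were higher. The 6 others overlapped among the 9 members that passed the low-count filter, and Epyc did not pass it. By edgeR's quasi-likelihood test, adjusted over the 15282 genes tested, 0 members were called higher and 0 lower, where 0% of all tested genes were called in each direction. At an unadjusted p under 0.05 that test had 2 members higher (Aspn and Ogn) and 1 lower (Chad), where it had 12.2% of all tested genes higher and 11.2% lower. DESeq2 called the same 3, 2 higher and 1 lower, where it called 7.24% of tested genes higher and 8.26% lower, and edgeR's likelihood ratio test also called these 3, while limma-voom called 0. The 2 osteoarthritis libraries were above both controls in 2 of the 9 tested members and in 30% of all tested genes, and below both in 1 member and in 26.5% of the genes. In either direction that is 3 of 9 members, beside 56.5% of all tested genes, so the members' libraries did not separate more often than those of other genes. The median log2 fold change, osteoarthritis over control, was -0.24 over the 9 members and 0.15 over all tested genes. With library size alone as the scale the median of all genes was 0.27, and none of 4 other scalings turned the direction of a member.

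**Figure D2:**
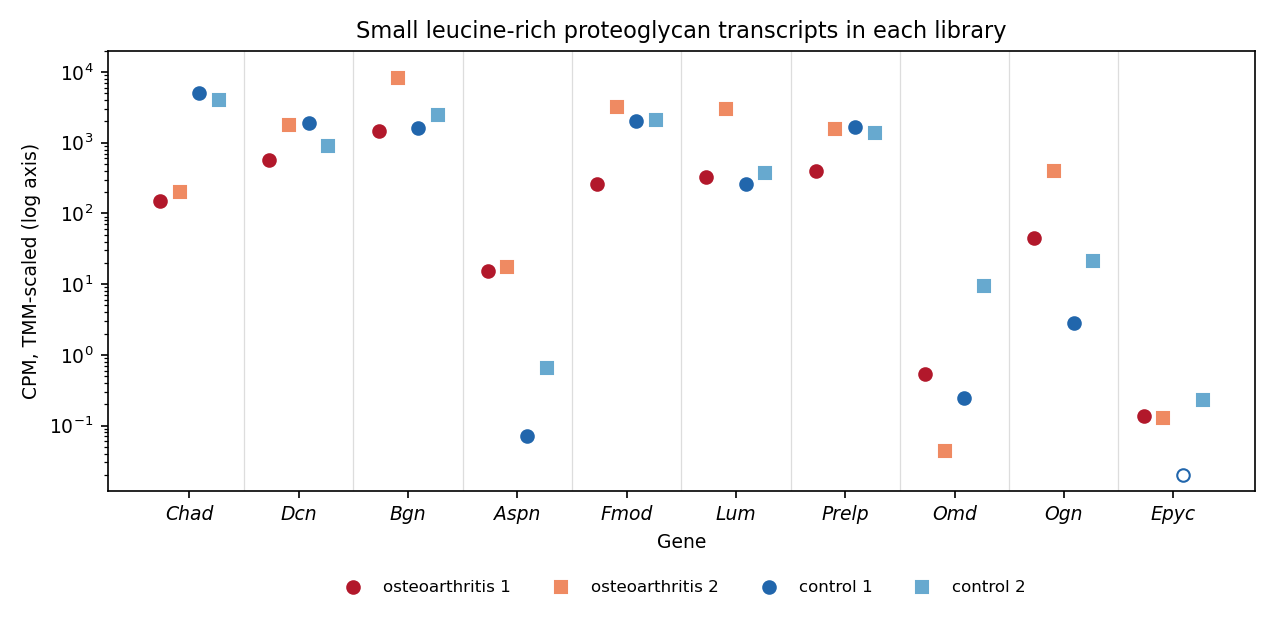
TMM-scaled CPM (log axis) of the 10 genes in each library, with the osteoarthritis libraries left of the controls; the open symbol marks 0 counts of Epyc in control replicate 1, drawn at the bottom of the axis. Chad lay at 151 and 198 CPM in osteoarthritis, against 5019.8 and 4012 CPM in control, and Aspn and Ogn lay above both controls.

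The promoters of these 3 genes are shown because their libraries were the ones that separated by group. They run from 250 bases before to 50 bases after the transcription start, are taken from RefSeq (build GRCr8), and are written 5′ to 3′ on the strand of the gene. The build behind the counts is not given with certainty, so these sequences are reference sequence and were not read from the libraries. Capitals mark matches, on either strand, to 6 motifs. These were TATAAA of the core promoter, CCAAT as bound by NF-Y, GGGCGG as bound by SP1, AACAAT as bound by SOX factors, TGTGGT as bound by RUNX factors, and TGANTCA as bound by AP-1, where N is any base.
Chad promoter, chr10:80008795-80009094, plus strand: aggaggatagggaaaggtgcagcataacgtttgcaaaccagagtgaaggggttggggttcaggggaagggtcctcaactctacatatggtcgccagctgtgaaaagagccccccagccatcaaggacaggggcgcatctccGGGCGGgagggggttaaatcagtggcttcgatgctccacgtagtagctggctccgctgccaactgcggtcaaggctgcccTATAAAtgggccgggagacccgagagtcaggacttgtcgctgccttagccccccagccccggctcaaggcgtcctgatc
Aspn promoter, chr17:15310420-15310719, minus strand: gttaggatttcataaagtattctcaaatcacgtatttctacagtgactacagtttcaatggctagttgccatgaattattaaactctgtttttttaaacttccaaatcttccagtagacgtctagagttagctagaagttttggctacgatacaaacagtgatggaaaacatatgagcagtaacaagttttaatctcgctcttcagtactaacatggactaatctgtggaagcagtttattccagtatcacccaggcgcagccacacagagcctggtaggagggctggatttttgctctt
Ogn promoter, chr17:15258946-15259245, minus strand: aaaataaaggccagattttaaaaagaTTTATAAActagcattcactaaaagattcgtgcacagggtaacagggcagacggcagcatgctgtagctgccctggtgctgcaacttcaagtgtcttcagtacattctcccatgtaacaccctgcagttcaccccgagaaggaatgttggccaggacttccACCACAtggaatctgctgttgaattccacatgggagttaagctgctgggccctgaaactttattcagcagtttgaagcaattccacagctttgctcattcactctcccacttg
The Chad window held TATAAA starting 29 bases before the transcription start and GGGCGG starting 109 bases before it. The Ogn window held TATAAA on both strands in overlapping positions, starting 224 and 222 bases before the start, and the RUNX letters on the minus strand 63 bases before it. None of the 6 motifs was found in the Aspn window. Of 33469 promoters of the same length, 14.2% held TATAAA, 33.1% held GGGCGG and 17.3% held TGTGGT. The G and C content was 60.0% for Chad, 39.0% for Aspn and 46.0% for Ogn, against a median of 51.7% over all promoters. Matches to these letters are a description and do not show that a factor binds there.

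Chad encodes chondroadherin, a protein of the fourth class of the family that binds collagen II and, on chondrocytes, integrins. Per length it was the most abundant of the 10 genes in control cartilage and the 38th and 75th of all 24005 genes there, against the 1113th and 919th in the osteoarthritis libraries. It had 4445 and 4589 counts in osteoarthritis and 142615 and 104581 counts in control. The osteoarthritis values were within 1.32-fold of each other, and the lower control stood 20.2-fold above the higher osteoarthritis library on the CPM scale. The fitted log2 fold change was -4.69 ± 0.60 (SE, 95% interval -6.21 to -3.18), a 25.9-fold lower level in osteoarthritis (adjusted p = 0.0824 by edgeR's quasi-likelihood test). That was the 63rd smallest unadjusted p among the 15282 genes. Without each library in turn the log2 fold change stayed between -4.89 and -4.54. It passed the threshold without either osteoarthritis library (adjusted p = 0.000251 without replicate 1 and 2.40e-06 without replicate 2, edgeR), where the lone sample is assumed to vary like the controls. It did not pass without either control, and over all 14 alternatives its adjusted p ran from 1.64e-32 (DESeq2) to 0.317 (edgeR without control replicate 2). The chondrocyte, osteoblast and marrow lists were lower in the same libraries, and their part in the result was not tested.

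Chadl encodes a chondroadherin-like protein whose transcript is also found in cartilage, and it was lower along with Chad. It had 11.3 and 8.43 CPM in osteoarthritis and 47.3 and 99.6 CPM in control, without overlap. Its log2 fold change was -2.90 ± 0.49 (edgeR adjusted p = 0.0835, DESeq2 adjusted p = 2.21e-05). The FPKM ratio of Chad to Chadl was 19.5 and 34.2 in osteoarthritis and 154 and 58.5 in control, so the ratio was below both controls as well.

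Dcn, Bgn and Aspn form the first class of the family, whose cores carry chondroitin or dermatan sulfate (Dcn and Bgn) or a run of aspartates in place of a chain (Aspn). Aspn encodes asporin, which binds collagen and TGF-beta. It had 455 and 404 counts in osteoarthritis, against 2 and 17 counts in control. Exact 95% Poisson intervals of the control counts were 0.242 to 7.22 and 9.90 to 27.2, and cover counting error only. The osteoarthritis libraries were close to each other at 15.4 and 17.5 CPM, while the controls, at 0.0704 and 0.652 CPM, were near the limit of detection and differed 9.26-fold. The lower osteoarthritis library was 23.7-fold above the higher control. Its log2 fold change was 5.50 ± 1.13 (edgeR adjusted p = 0.0982), between 4.59 and 7.79 when single libraries were left out. On log2(FPKM + 1), where a low control level counts for less, it was 2.79. Because Aspn passed the filter only through the osteoarthritis libraries, it had to be higher there to be tested, whereas Chad was abundant in all libraries.

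Bgn encodes biglycan, which binds collagen, BMPs and Toll-like receptors. It had 1466 and 8181 CPM in osteoarthritis and 1627 and 2467 CPM in control. Osteoarthritis replicate 2 was above both controls and replicate 1 below both, so the groups overlapped. The log2 fold change was 1.24 ± 0.92 (95% interval -1.09 to 3.56, edgeR adjusted p = 0.472), and it was -0.47 without osteoarthritis replicate 2 and 1.96 (edgeR adjusted p = 0.00875) without replicate 1.

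Dcn encodes decorin, which limits the lateral fusion of collagen fibrils and binds TGF-beta. It had 567 and 1764 CPM in osteoarthritis and 1911 and 896 CPM in control. Both groups were split in a similar range, and the log2 fold change of -0.27 ± 0.74 had a 95% interval of -2.13 to 1.59 (edgeR adjusted p = 0.872). That interval spans 0 widely, so no change of Dcn was detectable at this spread. Its direction turned to 0.31 without osteoarthritis replicate 1 and 0.32 without control replicate 1.

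Fmod, Lum, Prelp and Omd belong to the second class, several of whose proteins carry keratan sulfate or tyrosine sulfate. The levels of these genes did not run in parallel. Lum encodes lumican, which shares a binding site on collagen I with fibromodulin. It had 328 and 2972 CPM in osteoarthritis and 262 and 372 CPM in control. The first osteoarthritis library lay between the controls and the second 7.98-fold above the higher of them. The log2 fold change was 2.38 ± 1.06 (95% interval -0.28 to 5.04, edgeR adjusted p = 0.254), and it was 0.06 without osteoarthritis replicate 2 and 3.19 (edgeR adjusted p = 0.000457) without replicate 1.

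Fmod encodes fibromodulin, a keratan sulfate proteoglycan that assists collagen crosslinking. It had 265 and 3239 CPM in osteoarthritis and 2039 and 2112 CPM in control. The controls differed by 1.04-fold and the osteoarthritis libraries by 12.2-fold, lying on either side of the controls. With all libraries the log2 fold change was -0.24 ± 1.11 (95% interval -3.03 to 2.54, edgeR adjusted p = 0.927). Leaving out osteoarthritis replicate 2 gave -2.96 (edgeR adjusted p = 0.000231), and leaving out replicate 1 gave 0.61. The direction of Fmod therefore rests on which osteoarthritis library is used.

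Prelp encodes PRELP, whose basic amino-terminal end binds heparan sulfate and which links basement membranes to matrix. It had 397 and 1569 CPM in osteoarthritis and 1688 and 1359 CPM in control. Replicate 1 of osteoarthritis was below both controls and replicate 2 between them. The log2 fold change was -0.63 ± 0.74 (95% interval -2.50 to 1.24, edgeR adjusted p = 0.662), and it was -1.93 (edgeR adjusted p = 0.00714) without osteoarthritis replicate 2 and 0.014 (edgeR adjusted p = 0.99) without replicate 1, where its direction turned.

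Omd encodes osteomodulin, also called osteoadherin, which is made by osteoblasts and binds hydroxyapatite. It had 16 and 1 counts in osteoarthritis and 7 and 243 counts in control, so a single control library held most of its reads. Its log2 fold change of -3.99 ± 2.10 (edgeR adjusted p = 0.318) became 0.28 without control replicate 2. The osteoblast and osteocyte markers were also highest in that library, at 5712 CPM, against 1397 CPM in control replicate 1, and their part in the Omd level was not tested.

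Ogn and Epyc belong to the third class. Ogn encodes osteoglycin, also called mimecan, which shapes collagen fibrils. It had 1346 and 9117 counts in osteoarthritis and 81 and 554 counts in control, or 45.7 and 394 CPM against 2.85 and 21.3 CPM. Both groups were widely split, by 8.63-fold in osteoarthritis and 7.45-fold in control, yet the lower osteoarthritis library was still 2.15-fold above the higher control. The log2 fold change was 4.19 ± 1.41 (95% interval 0.63 to 7.75, edgeR adjusted p = 0.175), and it lay between 1.93 and 6.28 when single libraries were left out. Epyc, epiphycan, a proteoglycan of growth plate cartilage, had 4 and 3 counts in osteoarthritis and 0 and 6 counts in control. As a one-sided limit a count of 0 allows up to 3 counts, whereas the two-sided Poisson interval used for Aspn reaches 3.69, and no difference of Epyc was detectable at this depth.

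**Figure D3:**
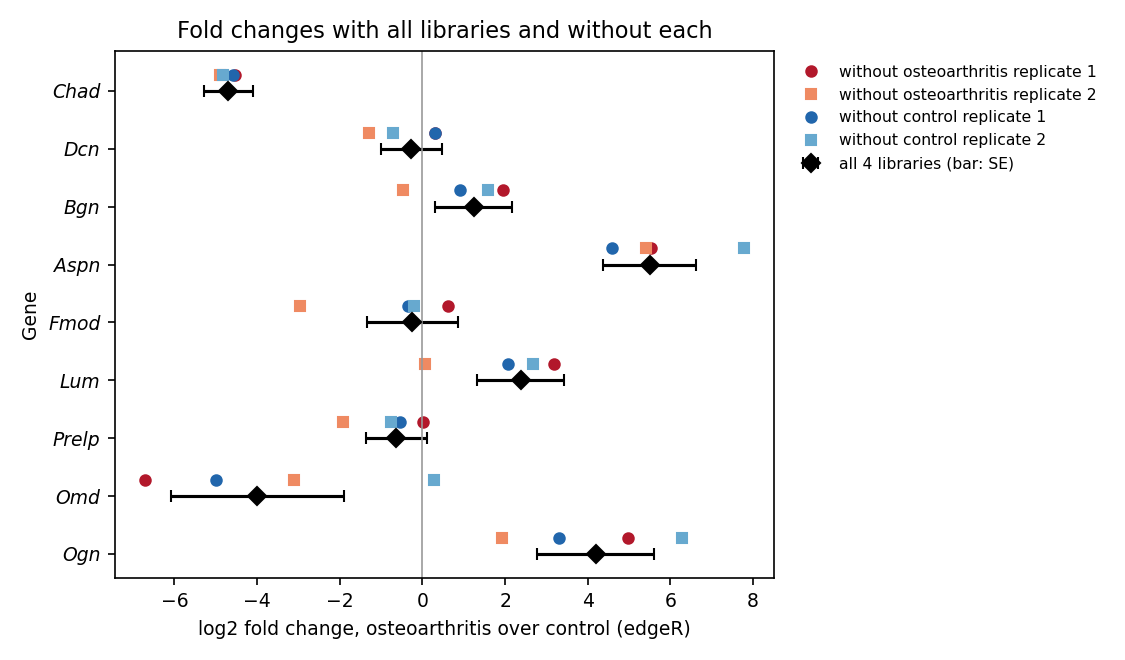
Log2 fold change, osteoarthritis over control, of the 9 tested members from edgeR (black diamonds with SE) and from the same fit without each library (coloured points above). Chad, Aspn and Ogn stayed on 1 side of 0 in all 4 reduced fits and so did Lum (0.06 to 3.19), while Dcn, Bgn, Fmod, Prelp and Omd crossed 0 in at least 1.

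The make-up of the family within a library does not depend on scaling between libraries, and FPKM, a count per gene length and library total, allows genes to be set side by side. In control cartilage Chad led with 36.3% and 33.0% of the 10 genes' summed FPKM, whereas in osteoarthritis its share was 3.80% and 0.892%. Biglycan took the first place in osteoarthritis, with 42.9% and 42.7%, against 13.6% and 23.6% in control. Lum made up 13.5% and 21.8% in osteoarthritis and 3.08% and 5.001% in control. The shares of these 3 genes did not overlap between groups, nor did those of Fmod, Prelp, Ogn and Aspn. By CPM, 56.5% of all tested genes did not overlap, and no such background was worked out for shares. The shares of Bgn were within 1 percentage point of each other in osteoarthritis although its CPM differed 5.58-fold between those libraries. The shares of Dcn were 23.5% and 13.0% in osteoarthritis and 22.7% and 12.1% in control, and thus varied as much within a group as between groups. The shares of Prelp were 8.35% and 5.88% in osteoarthritis and 10.2% and 9.34% in control, and those of Fmod 6.39% and 13.9% against 14.1% and 16.6%, both below the controls in each osteoarthritis library. Shares add up to a fixed total, so the lower share of Chad leaves more for the others together, although those of Fmod and Prelp were lower too. By raw counts, the share of Chad was 4.66% and 1.08% in osteoarthritis and 40.0% and 35.7% in control. With 2 libraries a group, the smallest two-sided p that an exact permutation test of a share allows is 1 in 3, and no such test was run.

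**Figure D4:**
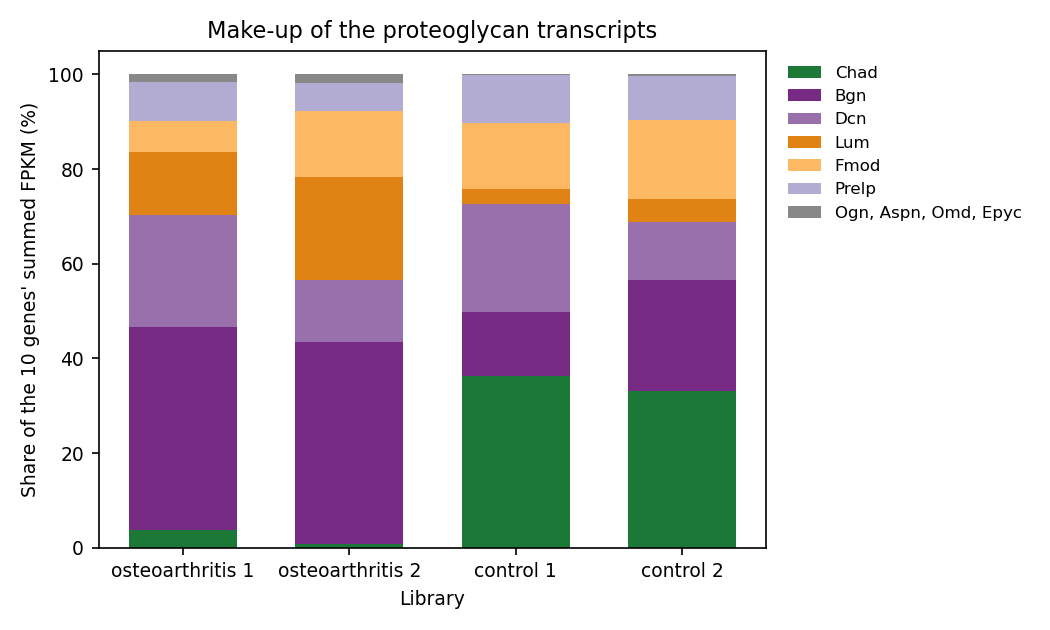
Share of each gene in the summed FPKM of the 10 genes, in percent, for each library, with Ogn, Aspn, Omd and Epyc stacked as 1 segment. Chad fills 3.80% and 0.892% of the osteoarthritis bars and 36.3% and 33.0% of the control bars, and Bgn fills 42.9% and 42.7% against 13.6% and 23.6%.

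The order of levels changed accordingly. By FPKM, osteoarthritis replicate 1 ran Bgn, Dcn, Lum, Prelp, Fmod, Chad, and replicate 2 ran Bgn, Lum, Fmod, Dcn, Prelp, Ogn, with Chad seventh. Control replicate 1 ran Chad, Dcn, Fmod, Bgn, Prelp, Lum, and control replicate 2 ran Chad, Bgn, Fmod, Dcn, Prelp, Lum. Mean levels in osteoarthritis were 1862 ± 1606 FPKM for Bgn, 880 ± 921 for Lum, 658 ± 367 for Dcn, 544 ± 616 for Fmod, 277 ± 192 for Prelp and 63.5 ± 1.24 for Chad (SD, n = 2). The means of neighbours among the first 5 do not differ beyond that spread, while Bgn lay above the others in both libraries. In control the means were 1555 ± 343 FPKM for Chad, 806 ± 184 for Bgn, 804 ± 455 for Dcn, 680.2 ± 26.4 for Fmod, 438 ± 94.2 for Prelp and 176 ± 32.4 for Lum (SD, n = 2). There Bgn, Dcn and Fmod do not differ beyond their spread, while Lum lay below the 5 others in both libraries.

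Ratios within a library were taken for the 15 pairs of these 6 abundant genes. For 11 pairs the osteoarthritis ratios lay on 1 side of both controls, which is 73.3% of the pairs, beside 56.1% of all pairs of tested genes with a count in every library. The pairs share genes, and 5 of the 11 were the pairs with Chad. The ratio of Lum to Fmod was 2.11 and 1.56 in osteoarthritis and 0.219 and 0.300 in control. Lum was thus above Fmod in both osteoarthritis libraries and below it in both controls, although the level of Fmod differed 12.2-fold between the osteoarthritis libraries. The ratio of Lum to Prelp was 1.61 and 3.70 in osteoarthritis and 0.303 and 0.536 in control, and that of Lum to Dcn 0.573 and 1.67 against 0.136 and 0.412. The ratio of Bgn to Fmod was 6.71 and 3.06 in osteoarthritis and 0.966 and 1.42 in control. The 4 pairs that overlapped were those among Dcn, Fmod and Prelp and the pair Bgn and Dcn. For Bgn to Dcn the ratio was 1.82 and 3.27 in osteoarthritis and 0.600 and 1.94 in control.

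**Figure D5:**
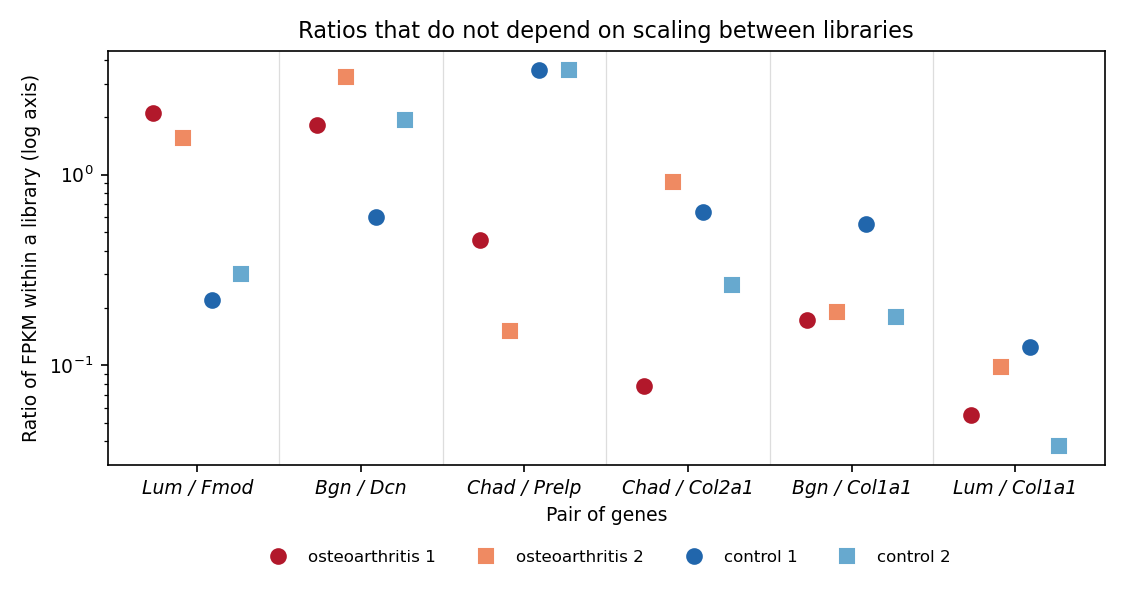
Ratio of FPKM between 2 genes within each library (log axis), with the osteoarthritis libraries left of the controls. Lum over Fmod lay at 2.11 and 1.56 in osteoarthritis and 0.219 and 0.300 in control, Chad over Prelp lay below both controls, and the 4 other ratios overlapped.

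Several of the genes are neighbours on the GRCr8 assembly. Dcn, Lum, Kera and Epyc follow each other as adjacent protein-coding genes, as do Optc, Prelp and Fmod, and Ogn, Omd and Aspn. Adjacent genes differed in their pattern. In the third group Ogn and Aspn were above both controls, while Omd, which lies between them, had 0.543 and 0.0432 CPM in osteoarthritis and 0.246 and 9.32 CPM in control. The FPKM ratio of Omd to Aspn was 0.0414 and 0.00291 in osteoarthritis and 4.12 and 16.8 in control. These ratios rest on few reads: 1 count of Omd in osteoarthritis replicate 2, and 7 counts of Omd and 2 of Aspn in control replicate 1. In the first group Lum and Kera, keratocan, both differed strongly between the osteoarthritis libraries, with Kera at 1.73 and 136 CPM there and 32.6 and 17.5 CPM in control. Kera is also in the list of tendon and ligament markers.

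Other genes of the family were listed as well, and 8 of the 9 were in the table, of which 6 were tested. By edgeR's quasi-likelihood test 0 were called higher and 0 lower, beside 0% of all tested genes in each direction. DESeq2 called 0 higher and 1 lower, Chadl, beside 7.24% and 8.26% of all tested genes. Above both controls lay 1 of the 6 and below both lay 1, beside 30% and 26.5% of all tested genes. Optc, opticin of the third class, had 12.3 and 17.0 CPM in osteoarthritis and 4.61 and 9.36 CPM in control, above both controls, and the log2 fold change was 1.07 ± 0.58 (edgeR adjusted p = 0.326). Tsku, tsukushi, had a log2 fold change of 0.83 ± 0.64 and Kera one of 1.46 ± 1.60, and both overlapped. Nyx and Nepn had no count in either control, where the one-sided limit is again 3 counts, and 5 and 5 (Nyx) and 13 and 1 (Nepn) counts in osteoarthritis.

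The collagens that these proteoglycans bind were counted from a list of 13, all tested. By edgeR's quasi-likelihood test 0 were called, and DESeq2 called 5 of 13 higher and 2 lower, beside 7.24% and 8.26% of all tested genes. Their median log2 fold change was 1.61, beside 0.15 over all tested genes, with 6 above both controls and 2 below both, beside 30% and 26.5% of all tested genes. Col2a1, the fibril collagen of cartilage, and Col9a1, which sits on its surface, were the 2 below both, with log2 fold changes of -3.42 ± 1.25 and -2.95 ± 1.10. Col9a1 had 30.3 and 15.7 CPM in osteoarthritis and 32.2 and 324 CPM in control. Its lower control thus stood only 1.06-fold above the higher osteoarthritis library. Col6a3, of the beaded filaments around cells, had 1430.4 and 5975 CPM in osteoarthritis and 486 and 747 CPM in control (log2 fold change 2.59 ± 0.85). Col3a1 was at 2.08 ± 0.91, Col1a1 at 1.61 ± 1.29 and Col12a1, a collagen of fibril surfaces, at 5.48 ± 1.95 on the same scale. The smallest adjusted p of the list by edgeR was 0.168, for Col6a3. Set against their partners by FPKM, the ratio of Bgn to Col1a1 was 0.174 and 0.191 in osteoarthritis and 0.549 and 0.178 in control, and that of Lum to Col1a1 0.0546 and 0.0974 against 0.124 and 0.0378, both overlapping. The ratio of Fmod to Col1a1 was 0.0259 and 0.0623 in osteoarthritis and 0.568 and 0.126 in control, and lay below both controls. The ratio of Dcn to Col3a1 was likewise below both controls, at 0.127 and 0.138 in osteoarthritis and 1.37 and 0.335 in control. That of Dcn to Col1a1 overlapped, at 0.0953 and 0.0583 in osteoarthritis and 0.915 and 0.0918 in control. The ratio of Chad to Col2a1 was 0.0778 and 0.912 in osteoarthritis and 0.639 and 0.265 in control, and overlapped. Those of Lum to Col3a1 and of Prelp to Col2a1 overlapped too. Among all pairs of tested genes with a count in every library, 56.1% did not overlap.

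Among 21 enzymes that build or sulfate the chains and tyrosines of the family, edgeR's quasi-likelihood test called 0 and DESeq2 called 1 higher, Dse, and 0 lower, beside 7.24% and 8.26% of all tested genes. Their median log2 fold change was 0.09, beside 0.15 over all genes, with 6 above both controls and 4 below both, beside 30% and 26.5% of all genes, so the counts were near or below the background. Dse, which epimerizes chondroitin to dermatan sulfate, had 59.1 and 159 CPM in osteoarthritis and 23.6 and 36.1 CPM in control (log2 fold change 1.87 ± 0.57, edgeR adjusted p = 0.154). Csgalnact1 and Chsy1, enzymes of chondroitin chain synthesis, were at 1.27 ± 0.40 and 1.72 ± 0.71, and Tpst1, a tyrosine sulfotransferase, at 0.79 ± 0.33. These 4 had the smallest unadjusted p of the list, and all 4 lay above both controls.

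Of 16 growth factors and receptors that bind members of the family, 15 were tested, and edgeR's quasi-likelihood test called 0 while DESeq2 called 4 higher and 0 lower, beside 7.24% and 8.26% of all tested genes. Above both controls lay 8 of the 15 and below both lay 2, beside 30% and 26.5% of all genes, and the median log2 fold change was 0.98, beside 0.15. Tgfb2 had 85.4 and 133 CPM in osteoarthritis and 23.5 and 36.1 CPM in control (log2 fold change 1.87 ± 0.41, edgeR adjusted p = 0.107). Tgfb3 was at 1.99 ± 0.66 and Itga1, a subunit of a collagen-binding integrin, at 2.81 ± 0.95. Tlr2, an innate receptor that binds biglycan, had 9.60 and 11.7 CPM in osteoarthritis and 23.8 and 28.3 CPM in control (log2 fold change -1.29 ± 0.39, edgeR adjusted p = 0.153).

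Of 11 proteases known to cut members of the family, 10 were tested, and edgeR's quasi-likelihood test called 0 while DESeq2 called 4 higher and 2 lower, beside 7.24% and 8.26% of all tested genes. The median log2 fold change was 0.94, beside 0.15 over all genes, with 5 above both controls and 2 below both, beside 30% and 26.5% of all genes. Adamts4, an aggrecanase, had 20.2 and 25.3 CPM in osteoarthritis and 6.69 and 8.67 CPM in control (log2 fold change 1.57 ± 0.43, edgeR adjusted p = 0.136). Tll1, a procollagen C-proteinase related to BMP1, was at 2.03 ± 0.62. The 2 below both controls were Mmp13, a collagenase that cuts fibromodulin, at -5.17 ± 1.59, and Mmp3, stromelysin, at -2.33 ± 0.90.

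For Bgn, Lum, Fmod, Prelp, Dcn and Ogn the higher osteoarthritis library was replicate 2, by 3.11-fold (Dcn) to 12.2-fold (Fmod). It was also the library with the high tendon and ligament markers. Tnmd, tenomodulin, had 23.6 and 381 CPM in osteoarthritis and 10.8 and 7.40 CPM in control, and Scx, scleraxis, 2.31 and 47.1 CPM against 8.73 and 5.18 CPM. Chondrocyte markers were mixed there: Acan (38.1-fold), Col11a1 (19.8-fold), Comp (16.1-fold), Sox9 (9.67-fold), Matn3 (7.34-fold), Col11a2 (1.77-fold) and Hapln1 (1.26-fold) were above replicate 1. The other listed chondrocyte markers that were found, Col2a1 among them, were below replicate 1. Replicate 1, where these proteoglycans were lower, was the library with the high adipocyte markers, with Adipoq at 949 CPM, against 0.432 CPM in replicate 2 and 137 and 44.6 CPM in control. The part of any of these tissues in the levels of the proteoglycans was not tested. Chad and Aspn differed by 1.32-fold and 1.13-fold between the same 2 libraries.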

How the data were processed

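Messenger RNA libraries of rat cartilage were analysed, 2 labelled osteoarthritis and 2 labelled control, grouped by disease state. Per the submitters' processing notes, the tools were fastp and TopHat and the build was hg38, a human build, while the gene symbols are those of rat. The sources used here do not give the counter, annotation or strandedness, and overlapping genes may share reads. The authors deposited raw read counts per gene and FPKM values. All 67506 deposited FPKM values above 0 equalled count over gene length and column total within a relative tolerance of 1e-06, so the FPKM table holds no separate measurement.

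Counts were tested with edgeR 4.0.16 (filterByExpr, TMM, quasi-likelihood F test, two-sided, Benjamini-Hochberg over 15282 genes, threshold 0.05) in R 4.3.3. SEs are the fold change over the root of F. DESeq2 1.42.0, limma 3.58.1 (voom, and trend on log2 FPKM), other scalings and filters, and fits without each library were alternatives. The members and lists were chosen with earlier results of these data known. All 10 members are named, with up to 4 genes per pathway list by smallest unadjusted p, the first 2 markers of cell type lists, and Col1a1, Col2a1 and Col3a1. Named outside that rule, after their values were seen, are Nyx, Nepn, Sox9, Comp, Col11a1, Matn3, Col11a2 and Hapln1. The gene pairs for ratios beyond the 15 were also picked with values known. Promoters came from RefSeq GRCr8, with 7 of the 10 members matched, and all 10 symbols matched the RefSeq gene table. Scripts were tested on simulated counts, with the variation between replicates estimated from these data. Of 99 genes changed 16-fold, edgeR's quasi-likelihood test recovered 71 and DESeq2 87. Of 99 genes changed 4-fold they recovered 5 and 36. False calls numbered 7 by edgeR and 117 by DESeq2. With the variation set to a dispersion of 0.1, the false calls were 2 and 23, and 71 and 82 of 100 genes changed 4-fold were recovered.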

Additional observations from a re-analysis of the deposited data

How the results depend on the processing

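In the main fit edgeR's quasi-likelihood test called 0 genes and 0 members in either direction. Without the low-count filter the same test gave 677 genes higher and 751 lower. Among them were 2 members higher (Aspn and Ogn, adjusted p = 0.00381 and 0.0129) and 1 lower (Chad, adjusted p = 0.00220). The number of genes tested without the filter was not kept, so no share of all genes stands beside these calls. The likelihood ratio test gave 965 higher and 978 lower of 15282 genes tested. DESeq2 gave 1107 and 1262 (7.24% and 8.26%), and both called the same members. The 4 other scalings, limma-voom and limma-trend on FPKM gave 0 members. Leaving out single libraries gave 0 to 1297 genes higher and 0 to 1105 lower, and 0 to 4 members higher and 0 to 3 lower. The calls came without an osteoarthritis library: 4 and 1 without replicate 1, and 1 and 3 without replicate 2. The direction turned in some of these fits for Dcn (-1.30 to 0.32), Bgn (-0.47 to 1.96), Fmod (-2.96 to 0.61), Prelp (-1.93 to 0.014) and Omd (-6.71 to 0.28), and in no alternative for Chad, Aspn, Ogn and Lum. The cause was not tested. No paired analysis was possible because the labels give no replicate numbers or pairing. Depth limits Epyc, Omd and the control level of Aspn.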

Other observations

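Of 13 chondrocyte markers tested, 8 were below both controls in both osteoarthritis libraries, as Chad was, and 0 were above both, beside 26.5% and 30% of all tested genes. Their median log2 difference from the control mean was -2.80 in osteoarthritis replicate 1 and -2.47 in replicate 2. In replicate 1 all 13 were below both controls. In replicate 2 there were 8 below both and 4 above both, and Matn3 lay between the controls. The 4 are named after their values were seen. Acan, the core protein of aggrecan, had 70.9 and 2703 CPM in osteoarthritis and 493 and 587 CPM in control. Sox9, the transcription factor of chondrocytes, had 19.5 and 189 CPM in osteoarthritis and 28.3 and 41.3 CPM in control. Col11a1, a minor chain of cartilage fibrils, had 119 and 2360.3 CPM in osteoarthritis and 196 and 531 CPM in control. Comp, a matrix protein of cartilage and tendon, had 278 and 4468 CPM in osteoarthritis and 4216 and 2506 CPM in control.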
